A study of Mus musculus with 18 samples.

Results

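The replication histone gene clusters of mouse chromosome 13 were described in open chromatin of naive CD4 T cells. The peaks of 18 ATAC-seq libraries, in which Tn5 transposase marks open DNA, were merged into 33115 union regions on build mm10. A region was counted in the clusters when its centre fell within one of a pair of windows fixed around the histone genes of chromosome 13. This gave 23 regions between 21710034 and 22051324 and 29 between 23517560 and 23764009, 52 in all. These windows hold 53 histone genes of a RefSeq annotation on the same build. The cells came from untreated wild-type C57BL6/J mice whose Nr4a1-dsGFP reporter makes a short-lived GFP when T cell receptor signalling induces Nr4a1. They were sorted into high and low reporter fractions, which stand for high and low tonic signalling, from the mesenteric lymph nodes, the axillary lymph nodes and the spleen. The 6 groups, mesenteric high, axillary high, spleen high, mesenteric low, axillary low and spleen low, had 3 libraries each, and each library was made from 500000 cells. The sample titles call the libraries of a group biological replicates but do not tie them to separate animals. The p-values therefore measure the spread between these libraries, and whether that is a spread between animals or a technical one is not known.

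Replication histone genes supply the bulk of the histones that package new DNA, and they are transcribed mainly while DNA is being copied. Their short genes lack introns, and their mRNAs end in a stem-loop instead of a poly(A) tail. In the nucleus the clusters gather in the histone locus body, which is built around the coactivator NPAT. H2A and H2B genes often lie head to head and share the DNA between their starts as a promoter. Naive T cells are resting cells, so open chromatin at these genes is measured here in cells that are mostly not dividing.

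The DNA that carries the results is shown first, from RefSeq promoter sequences on GRCm38.p6. The first 3 sequences fill the gaps between the H2A/H2B pairs whose read levels passed a test, and the last 2 lie upstream of an H4 gene and of an H1 gene, for contrast. Each is written 5′ to 3′ on the strand of the first gene named, ends at the base before its start, and lies at chr13:23683960-23684198 (minus strand), chr13:23574208-23574380 (plus), chr13:22035644-22035820 (minus), chr13:23698459-23698608 (minus) and chr13:23738657-23738806 (plus), in that order. Capitals mark the motif letters that were searched for on either strand.
H2ac6/H2bc4: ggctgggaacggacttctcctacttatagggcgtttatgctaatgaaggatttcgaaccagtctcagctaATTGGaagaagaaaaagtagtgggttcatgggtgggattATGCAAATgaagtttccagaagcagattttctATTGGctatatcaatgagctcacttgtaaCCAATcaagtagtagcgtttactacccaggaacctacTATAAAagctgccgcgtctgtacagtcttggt
H2ac7/H2bc7: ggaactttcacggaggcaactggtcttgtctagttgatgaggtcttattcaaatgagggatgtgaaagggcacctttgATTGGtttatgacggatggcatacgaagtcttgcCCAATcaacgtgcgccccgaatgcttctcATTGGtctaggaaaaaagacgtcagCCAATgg
H2ac12/H2bc12: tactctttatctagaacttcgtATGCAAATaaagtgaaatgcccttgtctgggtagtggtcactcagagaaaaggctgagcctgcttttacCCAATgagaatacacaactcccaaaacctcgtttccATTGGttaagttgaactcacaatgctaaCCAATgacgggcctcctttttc
H4c3: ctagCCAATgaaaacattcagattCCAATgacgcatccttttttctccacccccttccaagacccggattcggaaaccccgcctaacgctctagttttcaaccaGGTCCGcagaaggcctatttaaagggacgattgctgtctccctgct
H1f2: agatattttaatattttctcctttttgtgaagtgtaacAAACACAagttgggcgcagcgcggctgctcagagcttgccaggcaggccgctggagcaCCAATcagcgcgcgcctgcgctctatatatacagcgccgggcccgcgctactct

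The motif letters divided the classes. Windows of 250 bases before to 50 after the start were searched on both strands for 49 of the 53 genes, which gave 50 promoters, and for all 32851 promoters of the table. Windows of an H2A/H2B pair overlap, so such partners share many of their letters. The CCAAT box (CCAAT) stood in all 6 H1, 12 H2A, 14 H2B and 7 H3 promoters but in 3 of 11 H4 promoters, against 37.4% of all promoters. H4c3, shown above, was 1 of these 3, so its sequence differs in this from most H4 promoters. The octamer (ATTTGCAT), the site letters of POU factors such as POU2F1, was found in 4 of 12 H2A and 5 of 14 H2B promoters and in 0 of the H1, H3 and H4 promoters, against 1.74% of all. The letters GGTCCG, the core of the site bound by HINFP, an H4 gene activator, were in 10 of 11 H4 promoters, against 8.25% of all. The H1 box (AAACACA) was in 5 of 6 H1 promoters, against 7.18%, and the TATA box (TATAAA) was in 58% of all 50 histone promoters, against 13.6%. Matches of different motifs shared a base in 1 of the 50 promoters, and a match describes letters only.

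Peaks were found at 34 of the 53 histone genes, taking regions that reach within 500 bp of a gene start. No start was listed for H2ac14 (annotated as a pseudogene), H3c7, H2bc4 and H3c1, so the nearer gene end was used for them. The classes differed in how regularly they had a peak. H2A and H2B genes, whose products form the outer dimers of the nucleosome, mostly had either a peak in every library or none. Of 13 H2A genes, 7 had one in all 18 libraries and 6 in none. Of 14 H2B genes, 9 had one in all 18, H2bc6 in 9, and 4 in none. H3 and H4 genes, whose products form the inner core of the nucleosome, were spread between these ends. Counting the region nearest each start (or end, as above), H3c6 was the 1 of 9 H3 genes with a peak in all 18 libraries. H3c7, H3c8, H3c1, H3c10 and H3c3 had one in 12, 10, 7, 2 and 1. The count of H3c1 is from a region at 1 gene end, and the region of H4c1, with a peak in 12, lies within reach of its other end. H3c7 also lies within reach of the region of H2bc9, which had a peak in all 18. No H4 start among 11 was closest to a region of all 18 libraries. H4c4 had a peak in 14, H4c3 in 13, H4c1 in 12, H4c11 in 11, H4c2 in 10, H4c6 in 8, H4c8 in 5 and H4c9 in 2. H4c8 also lies within reach of a region that had a peak in all 18, centred 630 bp downstream of its start. H1 genes encode linker histones, which bind the DNA between nucleosomes, and H1f2, H1f3 and H1f1 had a peak in 17, 15 and 9 libraries. H1f4, H1f5 and the testis gene H1f6 had none. Partners of a head-to-head H2A/H2B pair share a region, so their counts are not independent. Most H2A and H2B genes without a peak lie in the peak-free stretch described below.

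**Figure D1:**
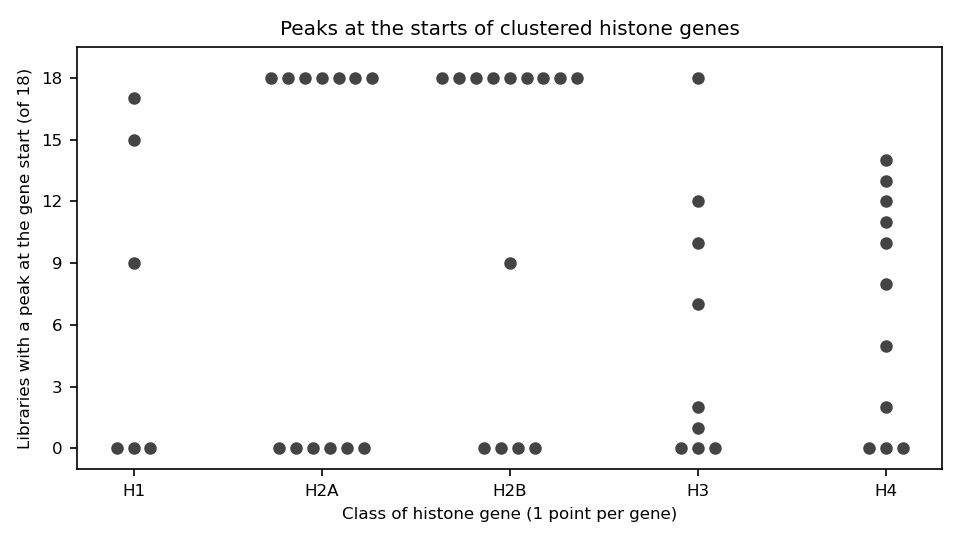
Libraries with a peak at the start of each of the 53 clustered histone genes (y axis, of 18), by histone class (x axis), 1 point per gene. The nearer gene end stands in where no start was listed. H2A and H2B genes sit at 18 or at 0 except H2bc6 at 9, while H3 and H4 genes are spread between 0 and 18.

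Where a region was present, shared starts went with regular peaks. Among 28 regions at histone gene starts, 9 lay near the starts of 2 histone genes, and 8 of these had a peak in all 18 libraries. Of the 19 near a single start, 3 did. The exception among the 9 was the region between H4c1 and H3c1, with a peak in 12 libraries. H2A/H2B pairs with no peak in any library, described below, do not enter this comparison. The regions of H2ac14, H3c7, H2bc4 and H3c1 among the 9 count as shared through a gene end, as these genes have no listed start. Summits lay between the starts: the median summit stood 88 bases upstream of H2ac6, 59 upstream of H2ac7 and 104 upstream of H2ac12. At H1f2 it lay 50 bases downstream of the start, and the region in all 18 libraries nearest to H4c8 was centred 630 bp downstream of its start.

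Peaks were about as regular in the clusters as over the whole genome. Regions with a peak in all 18 libraries made up 25% of the 52 regions, against 26.4% of all 33115. Of the 49 histone genes with a start in the promoter table, 61.2% had a region and 32.7% a region of all 18 libraries, against 50.5% and 32.7% of 17274 protein-coding genes. Strength was measured as the reads over a library's strongest summit in a region, recovered from the deposited peak values and scaled to the library's total over the 8756 regions with a peak in all 18 libraries ("scaled reads" below). This is a height at 1 position and needs no correction for gene length. The 11 histone start regions of all 18 libraries had a median of 19.3 scaled reads, against 25 at the 5108 protein-coding start regions of all 18 libraries, the 28.1 percentile of these.

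The strongest member was a region across the end of H1f2 (chr13:23739364-23740112, centred 931 bp downstream of the start, with the gene ending at 23739531). It had 29.5 ± 4.75 scaled reads (SD, n = 18 libraries, lowest 22.1, highest 37.5). The H1f2 start itself had 26.7 ± 3.67 in its 17 libraries, the highest level at a histone start, and lacked a peak in axillary low replicate 2. H3c6 followed with 24.8 ± 3.62, and H2ac6/H2bc4 with 23.1 ± 5.58. H2bc9/H3c7 had 22.3 ± 3.56, H2ac7/H2bc7 21.9 ± 4.49 and H2ac8/H2bc8 21.1 ± 4.37. The weakest histone starts of all 18 libraries were H2bc3 at 17.1 ± 2.71, H2ac12/H2bc12 at 16.9 ± 3.38 and H2ac14/H2bc14 at 14.6 ± 2.39. Neighbours in this order differed by less than their SD. H4 starts, where a peak was present, were at 19 ± 3.94 for H4c3 (n = 13), 17.7 ± 3.18 for H4c1 (n = 12) and 16.3 ± 1.5 for H4c8 (n = 5). H3c8 and H3c7 had 16.8 ± 3.48 (n = 10) and 15.9 ± 2.57 (n = 12), and H1f3 and H1f1 had 14.1 ± 2.63 (n = 15) and 13.8 ± 1.82 (n = 9). Means over libraries with a peak leave out the lowest values.

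**Figure D2:**
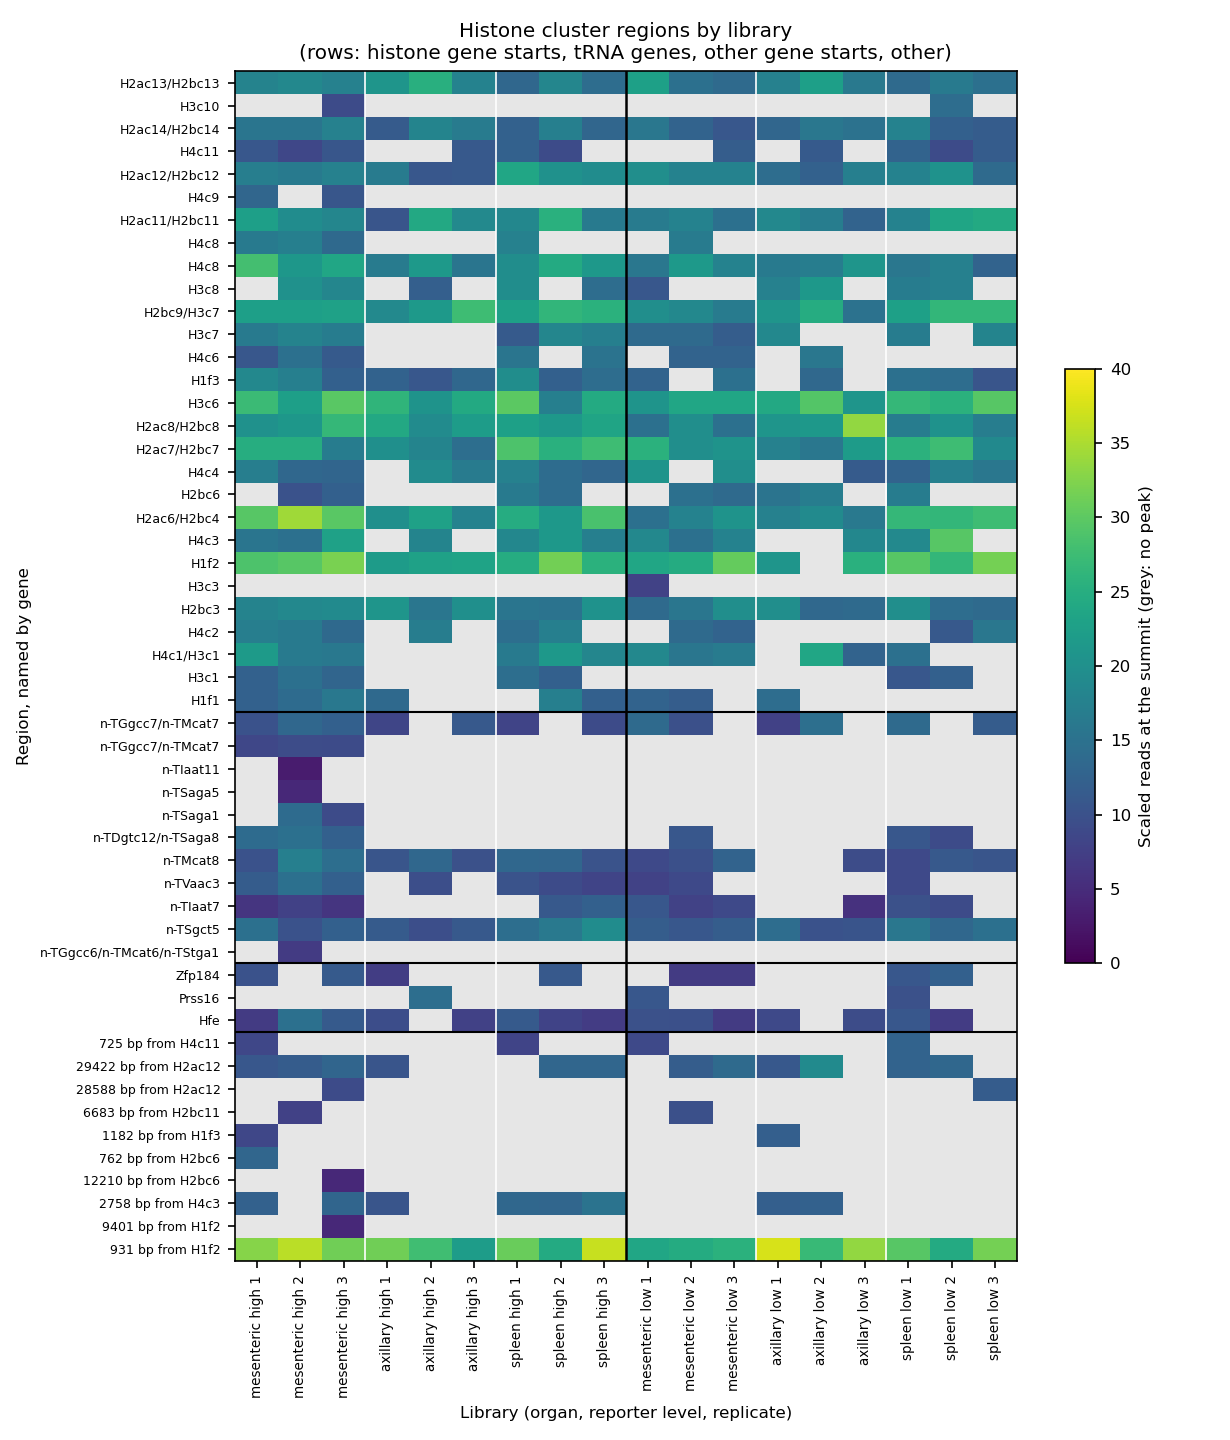
Scaled reads at the strongest summit of each of the 52 regions (rows, by kind and then by position) in each of 18 libraries (columns, high left of low), with grey where a library had no peak. The 13 rows without grey are 11 histone starts, a tRNA gene and the region across the end of H1f2, and the mesenteric high columns hold the least grey.

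The other 24 regions lay away from histone starts. tRNA genes, which RNA polymerase III transcribes, are dense in these clusters, and 11 regions lay at them. A region at n-TSgct5 had a peak in all 18 libraries at 12.9 ± 2.63 scaled reads, and one at n-TMcat8 in 16. Of 47 tRNA genes in the windows, 14 (29.8%) had a region and 1 (2.13%) a region of all 18 libraries, against 33.8% and 13.5% of 408 tRNA genes genome-wide. Starts of other genes gave 3 regions: Hfe, a regulator of iron uptake, in 15 libraries, the zinc finger gene Zfp184 in 8, and Prss16, a thymic protease gene, in 3. The 10 remaining regions were, apart from the one across the end of H1f2, in 1 to 12 libraries.

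Of the 19 histone genes with no peak, 13 sat together in 1 stretch of 119529 bp with no peak in any library (chr13:21735660-21855188). It holds H4c12, H2ac15, H2bc15, H1f5, H3c11, H2ac22, H2bc22, H2bc23, H2ac23, H4c17, H4c18, H2ac24 and the gene listed as H4bc24, an H2B gene by its older symbol Hist1h2br. The 11 head-to-head H2A/H2B pairs split along this line. The 7 outside the stretch had a peak in all 18 libraries, and the 4 inside it had none. H1f4 lay in a second peak-free stretch of 85514 bp (chr13:23598289-23683802). The 10 genes of the smaller histone cluster on chromosome 3 also had no peak, in a stretch of 119408 bp (chr3:96181498-96300905). Of all gaps between neighbouring regions, 90.3%, 86.6% and 90.3% were shorter than these stretches, in the order given. Near-identical copies were frequent inside the first stretch: 6 of its promoters shared 73.3% to 100% of their 50-base words with another promoter of the table. These were H2bc23, H2ac23, H4c17, H4c18, H2ac24 and H4bc24. H4c12 and H4c11 shared 11.6% with another promoter, and H4c11, with a peak in 11 libraries, was the 1 of 30 promoters with a peak that shared any. The remaining 13 promoters without a peak, which include a second start of H2bc6, shared none, among them H2ac15, H2bc15, H1f5 and H1f4. Peak names in the deposited lists carry the word blacklist. Whether masking or reads that map to several copies emptied these stretches was not tested, so no statement about closed chromatin is made for their genes.

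Mesenteric high libraries had a peak in more of the 52 regions than any other group, and they were also the deepest. The number of regions with a peak was 40.7 ± 2.08 in mesenteric high, 21.3 ± 1.15 in axillary high and 30.7 ± 1.53 in spleen high libraries, against 29.3 ± 1.53 in mesenteric low, 21.7 ± 1.53 in axillary low and 27.7 ± 5.51 in spleen low libraries (SD, n = 3 each). Depth, as background reads per 10 kb, was 16.6 ± 0.0557, 9.89 ± 0.307 and 13.7 ± 0.441 in the high groups and 12.2 ± 0.47, 9.08 ± 0.541 and 12.5 ± 2.4 in the low groups, in the same order of organs. The share of all union regions with a peak ran in step, from 68.6% in mesenteric high to 43.8% in axillary low libraries. Over all organs, high libraries averaged 30.9 ± 8.49 such regions and low libraries 26.2 ± 4.58 (SD, n = 9 each), an excess of 4.67 regions. Cut to the strongest 14372 peaks of each library, the counts were 25.1 in high and 24 in low libraries, and mesenteric high and spleen high libraries both averaged 28, against 26 in mesenteric low libraries. Thinned to the same background reads, mesenteric high libraries averaged 34.8 and spleen high libraries 28.2, against 27.6 in mesenteric low libraries. The group and the depth cannot be told apart in this count.

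**Figure D3:**
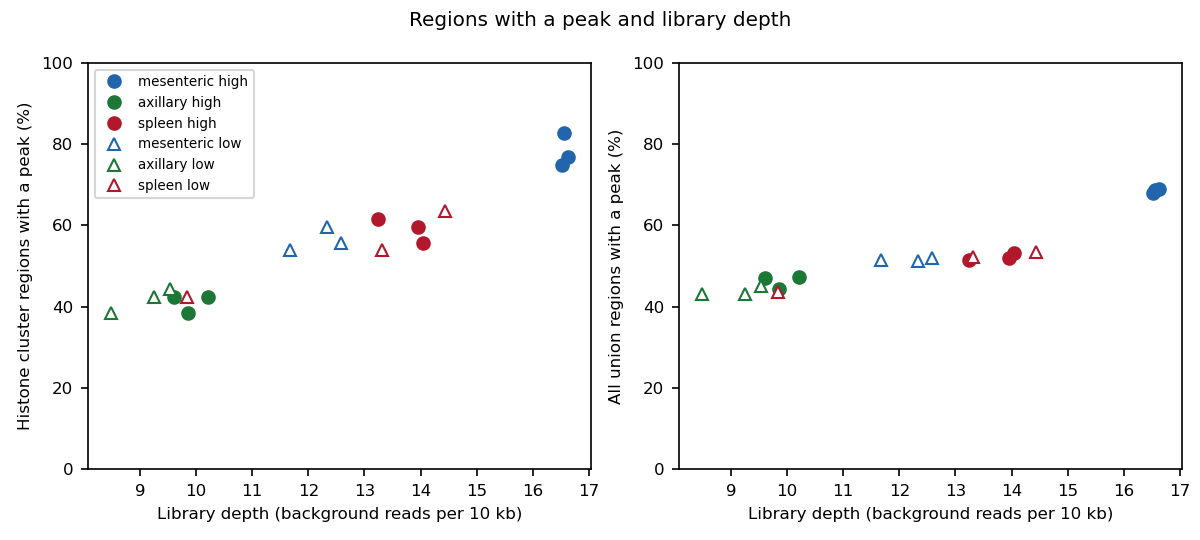
Share of the 52 histone cluster regions (left) and of all 33115 union regions (right) with a peak, against library depth in background reads per 10 kb. Filled circles are high libraries and open triangles low libraries, coloured by organ, and both shares are largest in the 3 deepest libraries, those of mesenteric high cells.

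For presence of a peak, no histone cluster region was called between high and low libraries. Of all 5737 regions with a peak in 6 to 12 libraries, 0 were called (percent called 0) by Fisher's exact test with Benjamini-Hochberg adjustment, and 350 (6.1%) had an unadjusted p under 0.05. Of the 52 histone cluster regions, 15 entered this test, and 0 were called or had an unadjusted p under 0.05. The largest tilt was at the tRNA gene n-TVaac3, which had its peak in 7 of 9 high libraries against 3 of 9 low ones, and at a region 2758 bp from H4c3, with 6 high and 2 low (each exact p = 0.153, adjusted p = 0.811). H1f1 stood at 6 high and 3 low, H3c1 in 5 and 2, H4c2 in 6 and 4, and H4c6 in 5 and 3. H2bc6 stood at 4 high and 5 low, and n-TIaat7 at 5 and 6. Thinning to the depth of the shallowest library was also added after seeing the data, and counts of single regions rest on 1 random draw. There n-TVaac3 stood at 7 high and 2 low, H1f1 at 4 and 2, and H3c1 at 1 and 0.

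Read levels could be compared at the 13 regions with a peak in all 18 libraries: 11 histone starts, n-TSgct5 and the region across the end of H1f2. Only these have a value in every library. The H1f2 start, at 26.7 scaled reads in 17 libraries, and the less regular H4, H3 and H1 starts therefore did not enter. Each value rests on 8 to 46 reads at the summit, median 19, which gives a counting error of 22.9% at the median. The tests are limma's on log2 scaled reads of all 8756 such regions, with Benjamini-Hochberg adjustment over all of them. Libraries of the same group differed by less than counting noise (chi-square per region 0.512 to 0.636 in 18 pairs). So did libraries of different groups (0.621 to 0.94 in 135 pairs). These values therefore cannot tell whether the replicates are technical, and the spread within groups may be that of technical repeats.

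H2ac6/H2bc4, the pair with the first sequence above, was the 1 histone cluster region called between high and low cells, in the mesenteric nodes. It had 29.6, 34.3 and 29.8 scaled reads in the mesenteric high libraries, against 14.8, 17.7 and 20.6 in the mesenteric low libraries. The groups did not overlap, and the lowest high library stood above the highest low one. The difference was 0.83 ± 0.19 log2 (SE), 1.77-fold, with an adjusted p of 0.00852. In this contrast 131 of the 8756 regions (1.5%) were called, 58 of them higher (0.662%), and 3 of the 13 had an unadjusted p under 0.05, against 12.5% of all. In the axillary nodes the pair had 19.9, 22.9 and 17.7 in high libraries, against 17.6, 19.1 and 16.2 in low libraries. In spleen it had 24.7, 21.3 and 28.5 in high libraries, against 26.7, 26.5 and 27.5 in low libraries. High and low overlapped in both of these organs, with differences of 0.19 ± 0.19 in the axillary nodes (adjusted p = 0.797) and -0.12 ± 0.19 in spleen (adjusted p = 0.887). The mesenteric difference exceeded that in spleen by 0.95 ± 0.27 log2 and that in the axillary nodes by 0.64 ± 0.27, and neither excess passed the test (adjusted p = 0.0984 and 0.443), so a difference between organs was not shown. In these 2 comparisons 24 (0.274%) and 3 (0.0343%) of all regions were called and 0 of the 13, with 1 and 3 of the 13 at an unadjusted p under 0.05, against 10.2% and 9.11% of all regions. Axillary nodes against spleen gave 0 of 8756, and 0 of the 13 at an unadjusted p under 0.05, against 7.46%. The call was lost without mesenteric high replicate 2 (adjusted p = 0.0856), without mesenteric low replicate 1 (0.0818) and on the authors' fold in place of reads (0.54 log2, 0.064). The 6 mesenteric libraries had fragment estimates of 162 to 172 bp. Depth differed between the groups compared, at 16.6 ± 0.0557 background reads per 10 kb in mesenteric high and 12.2 ± 0.47 in mesenteric low libraries. The part of depth in this call was not tested.

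**Figure D4:**
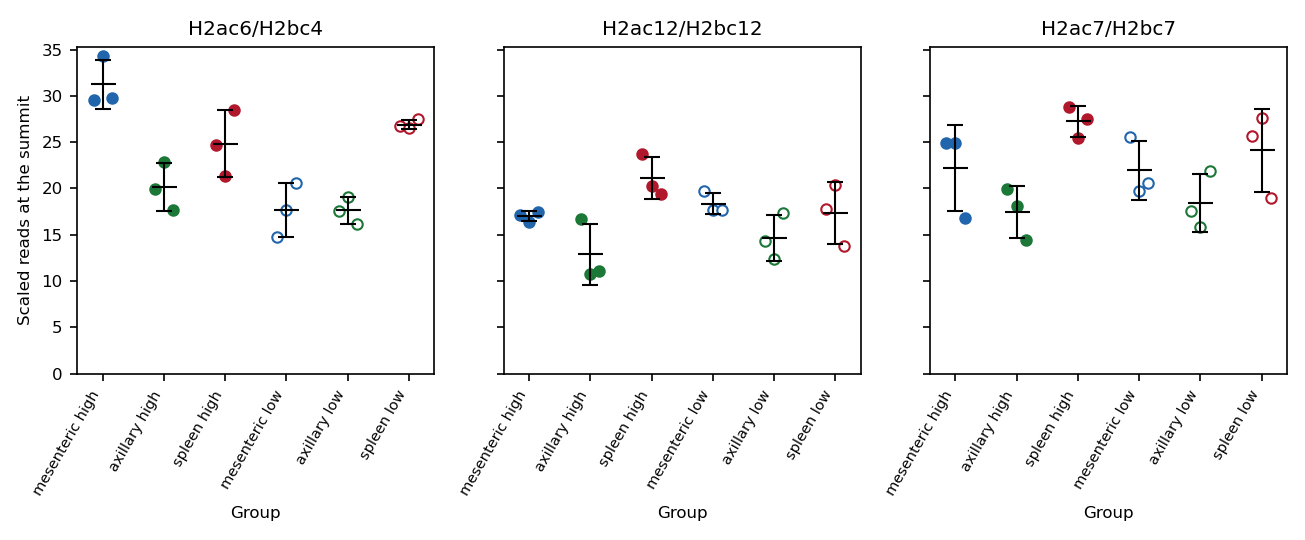
Scaled reads in each library (points), with the mean and SD of 3 libraries (bars), at the 3 H2A/H2B pairs that passed a limma test. At H2ac6/H2bc4 the mesenteric high libraries stand at 29.6 to 34.3, above the mesenteric low libraries at 14.8 to 20.6, while at H2ac7/H2bc7 and H2ac12/H2bc12 the axillary libraries sit lowest on average.

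None of the other 12 regions was called in the mesenteric nodes. The median difference of the 13 regions was 0.29 log2, with 12 of 13 above 0, among them H2ac7/H2bc7 at 0.0012, against a median of 0.03 over all 8756 regions, of which 54.6% were above 0. Mesenteric high libraries are the deepest of the series, and the part of depth in these values was not tested. The region across the end of H1f2 had 32.7, 35.9 and 31.3 scaled reads in mesenteric high libraries, against 23.6, 24.6 and 25.6 in mesenteric low libraries. These did not overlap, and the difference was 0.43 ± 0.17 (adjusted p = 0.199). H2ac8/H2bc8 had 20.2, 21.1 and 26.7 in mesenteric high, against 14.8, 19.7 and 14.7 in mesenteric low libraries, again without overlap (0.47 ± 0.20, adjusted p = 0.274). In all, 5 of the 13 had every mesenteric high library above every mesenteric low one, against 11.1% of all 8756 regions. H2ac12/H2bc12 was the 1 of 13 with the reverse order, against 9.35% of all regions, at -0.11 ± 0.22 (adjusted p = 0.893).

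In spleen and in the axillary nodes 0 of the 13 were called, against 19 (0.217%) and 28 (0.32%) of all 8756 regions. At an unadjusted p under 0.05 there was 1 in spleen and 0 in the axillary nodes, against 8.65% and 9.64% of all regions. Every high library stood above every low one at 2 of the 13 in spleen (the region downstream of H4c8, and H2ac8/H2bc8) and at 0 in the axillary nodes, against 6.56% and 6.8% of all regions, and the reverse held at 0 in both, against 7.66% and 5.81%. The one in spleen was the region downstream of H4c8, at 19.6, 24.4 and 21.4 scaled reads in spleen high libraries, against 15.8, 17.4 and 12.7 in spleen low libraries. The groups did not overlap, and the difference of 0.52 ± 0.21 log2 missed the threshold (adjusted p = 0.38). Over the 3 organs together 0 of the 13 were called, against 114 (1.3%) of all regions, and 2 had an unadjusted p under 0.05, against 13.8%. The largest estimates were 0.30 ± 0.12 at the region downstream of H4c8 (adjusted p = 0.219) and 0.30 ± 0.11 at H2ac6/H2bc4 (adjusted p = 0.167). At H3c6 the estimate was -0.02, with a 95% interval of -0.23 to 0.19, and at H2ac7/H2bc7 0.04, from -0.19 to 0.26.

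**Figure D5:**
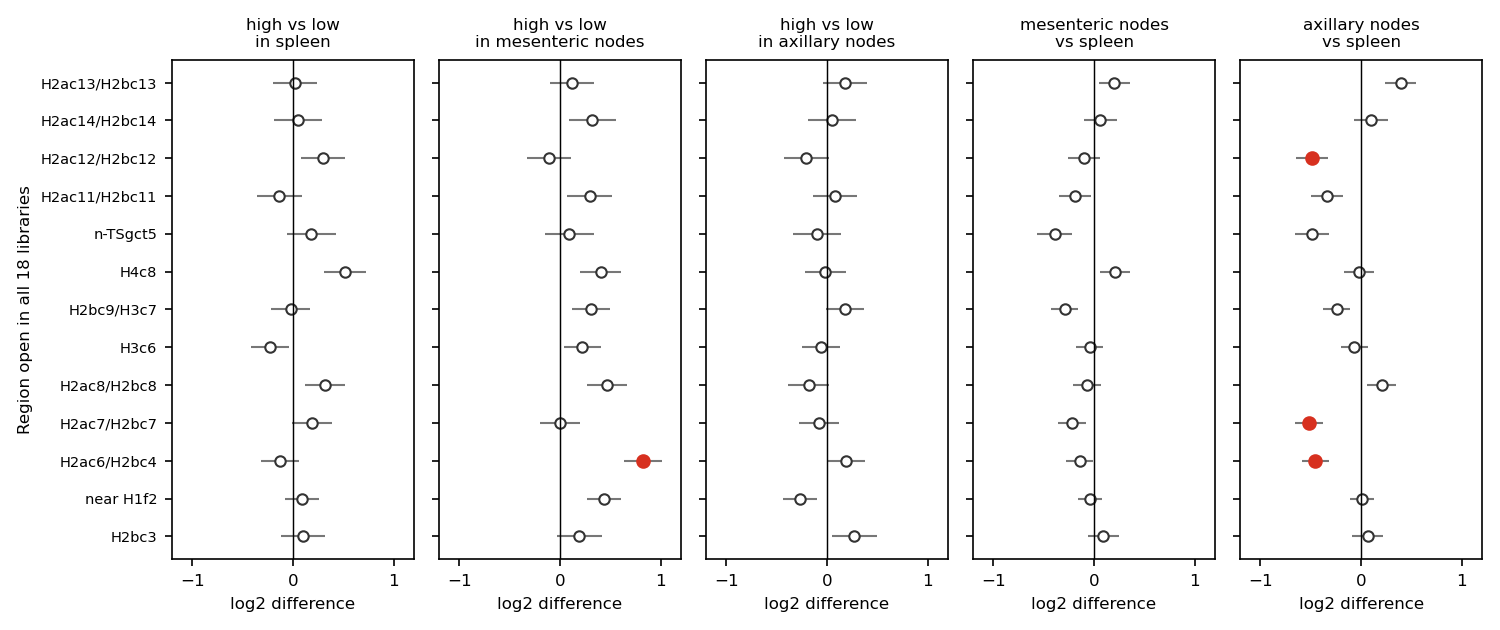
log2 differences of scaled reads with their SE (x axis) at the 13 regions with a peak in all 18 libraries (y axis), for 5 contrasts, with the first-named group positive and filled points where limma's adjusted p is under 0.05. The filled points are H2ac6/H2bc4 for high against low in the mesenteric nodes, and H2ac12/H2bc12, H2ac7/H2bc7 and H2ac6/H2bc4 below 0 for axillary nodes against spleen.

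Between organs, 3 H2A/H2B pairs were lower in the axillary nodes than in spleen, where 607 of 8756 regions (6.93%) were called, 309 of them lower (3.53%). At an unadjusted p under 0.05 there were 6 of the 13, against 22% of all regions. H2ac7/H2bc7 had 19.9, 18.1 and 14.4 scaled reads in axillary high and 17.6, 15.8 and 21.9 in axillary low libraries, against 28.8, 25.4 and 27.5 in spleen high and 25.7, 27.6 and 19 in spleen low libraries. Apart from spleen low replicate 3 at 19, every spleen library stood above every axillary one. The difference was -0.52 ± 0.14 log2 (adjusted p = 0.0127). H2ac6/H2bc4 had 16.2 to 22.9 scaled reads in the 6 axillary libraries, against 21.3 to 28.5 in the 6 spleen libraries (-0.46 ± 0.13, adjusted p = 0.022). H2ac12/H2bc12 had 10.8 to 17.3 in axillary libraries, against 13.8 to 23.7 in spleen libraries (-0.49 ± 0.16, adjusted p = 0.0409). These ranges overlapped in part. n-TSgct5 stood at 9.64 to 14.3 against 13.3 to 19.4 and was not called (-0.49 ± 0.17, adjusted p = 0.0644). H2ac13/H2bc13 had the largest positive estimate, 0.39 ± 0.16 (adjusted p = 0.102).

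The libraries of these organs also differed in a technical feature. The narrowest peak of a library, taken here as the peak caller's fragment estimate, was 216 to 236 bp in 5 of 6 axillary libraries and in spleen low replicate 3, and 161 to 176 bp in the other 12. With this split as a term of the fit, an alternative chosen after seeing the data, the differences were -0.33 at H2ac7/H2bc7, -0.38 at H2ac6/H2bc4 and -0.44 at H2ac12/H2bc12, and 0 of the 3 were called (adjusted p = 0.441, 0.315 and 0.322). The SE was larger in that fit, 0.196, 0.187 and 0.22 against 0.14, 0.133 and 0.157, and the part of the fragment estimate in these differences was not tested. Spleen low replicate 3 was the lowest spleen library at H2ac7/H2bc7 (19) and H2ac12/H2bc12 (13.8) and the second highest at H2ac6/H2bc4 (27.5). With each group averaged to 1 sample 0 were called (adjusted p = 0.1, 0.197 and 0.182). Without axillary high replicate 3 only H2ac7/H2bc7 was called (adjusted p = 0.0492). Leaving out each library in turn gave 18 fits. H2ac7/H2bc7 stayed called in 18 of them, H2ac6/H2bc4 in 16 and H2ac12/H2bc12 in 10.

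Mesenteric nodes against spleen gave 0 calls among the 13, against 143 (1.63%) of all regions, and mesenteric against axillary nodes gave 0, against 949 (10.8%). At an unadjusted p under 0.05 there were 2 and 3 of the 13, against 16% and 25.6% of all regions. n-TSgct5 had the largest difference between mesenteric nodes and spleen, with 10.1 to 14.8 against 13.3 to 19.4 scaled reads (-0.39 ± 0.17, adjusted p = 0.224). H2ac12/H2bc12 had the largest estimate between mesenteric and axillary nodes, with 16.4 to 19.7 against 10.8 to 17.3 (0.38 ± 0.16, adjusted p = 0.0967). The contrasts with spleen share the spleen libraries, so their values at a region are not independent. For presence of a peak across the 3 organs, 0 of 7630 regions were called (percent called 0), and 851 (11.2%) had an unadjusted p under 0.05. Among the 18 histone cluster regions tested, 0 were called and 2 had an unadjusted p under 0.05. A region inside H3c7 had a peak in 6 of 6 mesenteric, 1 of 6 axillary and 5 of 6 spleen libraries (exact p = 0.0118, adjusted p = 0.28). n-TIaat7 had one in 6 of 6, 1 of 6 and 4 of 6 (exact p = 0.0181, adjusted p = 0.281), in the same order of organs. The H4c8 start had a peak in 4 mesenteric, 0 axillary and 1 spleen library, and H4c3 in 6, 2 and 5 (each exact p = 0.0651, adjusted p = 0.385). The axillary libraries are the shallowest on average. Thinned to the same background reads per 10 kb in 1 random draw, these 4 regions kept their counts. At equal list length n-TIaat7 had a peak in 3 mesenteric, 1 axillary and 4 spleen libraries and the H4c8 start in 3, 0 and 1. The part of depth in these counts was not tested.

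Genes that act on replication histones were open in nearly all libraries. Of 25 genes for transcription and 3′ end processing of histone mRNA, 24 had a region within 1000 bp and 19 one in all 18 libraries, among them Npat at 44.6 scaled reads, Casp8ap2 at 47 and Slbp, the stem-loop binding protein, at 24.7. The H4 activator Hinfp had a weak region in 11 libraries (8.03), and Gon4l had none. Of the 19 regions of this list that were tested, 1 was called lower in high cells over the 3 organs and in the mesenteric nodes (Ccne1, cyclin E1), and 1 lower in spleen (Ccne2, cyclin E2), where 1.3%, 1.5% and 0.217% of all regions were called. The median difference over the organs was near 0 (-0.000127 log2, against 0.00687 for all regions). Between organs, the list had 1 higher call in mesenteric nodes against spleen (Lsm11, a subunit of the histone processing particle), 1 lower call in axillary nodes against spleen (Yy1), and 3 higher calls in mesenteric against axillary nodes (Lsm11, Yy1 and E2f1). In these 3 contrasts 1.63%, 6.93% and 10.8% of all regions were called.

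All 14 histone chaperone genes had a region, 12 of them in all 18 libraries, with Asf1a at 54.4 and Nap1l1 at 51.5 scaled reads. Between high and low 0 of their 14 tested regions were called in any contrast. Between organs, Rbbp4 was lower in axillary nodes than in spleen (1 of 14, against 6.93% of all regions), and Rbbp4 and Daxx were higher in mesenteric than in axillary nodes (2 of 14, against 10.8%). Of 11 replacement variants, which are made outside DNA replication, 8 had a region and 0 of 6 tested were called. H2az1 stood at 60.9 scaled reads, H2az2 at 37.1 and H3f3b at 33.6. H2ax, H1f10 and Macroh2a2 had none. All 10 markers of cycling cells had a region and 0 of 7 tested were called, with a median high against low difference of -0.05 log2 over the organs. Of the markers checked against the labelled cell type, 10 of 10 T cell markers had a region, 2 of 7 B cell markers did (Pax5 and Cd22, in 1 library each), and 3 of 7 myeloid markers did, in at most 4 libraries. All 3 CD8 T cell markers had a region, Cd8b1 in all 18 libraries, Eomes in 5 and Cd8a in 1.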

How the data were processed

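Per the labels, ATAC-seq was run on 18 libraries of 500000 cells, with 15 min of lysis and 30 min of tagmentation (37 °C). Trimmomatic 0.33, Bowtie2, MACS and bedtools, with build mm10, are named in the submitters' processing notes. Versions of Bowtie2, MACS and bedtools: not given in the sources used here. The deposited lists give for each peak the authors' score, fold (a ratio to local background), −log10 p and −log10 q, and these were used to describe and filter peaks. Of 314829 peaks, 404 on sequences other than the autosomes and X were set aside and 314425 kept. Taking fold as (pileup + 1)/(background + 1) and p as a Poisson tail, which no label states, whole pileups were recovered in 99.31% of peaks (within 0.002 in −log10 p). Depth was 8.48 to 16.6 background reads per 10 kb. Counting errors cover counting only, and the 95% intervals of differences are limma's, from the spread between libraries.

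Recovered reads were tested with limma 3.58.1 (R 4.3.3), and presence of a peak with Fisher's exact test and its 3-group form, all two-sided, with Benjamini-Hochberg adjustment over all regions at 0.05. In simulated libraries for high against low over the organs, 73.3% of regions changed 1.5-fold and 16% of those changed 1.25-fold were called. The simulated reads were Poisson draws, whereas real libraries of a group differed by less than counting noise. Contrasts within an organ or between organs were not simulated, so these shares do not apply to them. Gene starts and sequences came from RefSeq (GRCm38.p6), and other steps used Python 3.11.15. Alternatives changed the scaling, the filter, the overlap, the variance trend and the measure, and left out each library in turn. The regions, gene lists and motifs were chosen with earlier results of these data known. The text names, per histone class, the 3 genes with most reads, the regions with the smallest p per comparison, every region called and every histone gene without one; other counts named beside them were chosen after their values were seen.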

Additional observations from a re-analysis of the deposited data

How the results depend on the processing

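Depth limits these results: a summit rests on a median of 19 reads, and only 13 of the 52 regions have a value in every library. The H2ac6/H2bc4 call in mesenteric nodes became 0 on the authors' fold, and 0 to 1 when single libraries were left out. The 3 axillary against spleen calls became 5 on the authors' fold, 0 with each group averaged to 1 sample, 0 with the fragment estimate as a term (chosen after seeing the data), and 1 to 3 when single libraries were left out. Mesenteric against axillary nodes had 0 calls, 6 on the authors' fold and 0 to 1 when single libraries were left out. On the authors' fold the median of all regions was -0.11 log2 in axillary nodes against spleen and 0.21 in mesenteric against axillary nodes, a move of -0.10 and 0.19. What caused the changes in these counts of calls was not tested. Same-numbered libraries did not deviate together (correlations -0.0114 to 0.0256). Counting noise at so few reads could hide a shared deviation, so whether same-numbered libraries share an animal is not known. With the replicate block these counts were 1, 3 and 0 and no call changed. Averaging to 1 sample could not be fitted within an organ, and the fit on short-fragment libraries not for contrasts with axillary nodes. In the other settings 89 counts, and 230 with single libraries left out, stayed within 1.5 times or within the spread, and no direction reversed. These include counts of 0 that stayed 0, which could not reverse. For the excess below, a move smaller than the SD of low libraries (4.58) was taken as within the spread. The fall to 1.11 is therefore among those that stayed, and the tally is no measure of robustness. The excess of regions with a peak in high libraries was 4.67, 3.44 at a −log10 p of at least 10, 5.11 at 50% overlap, 1.11 at equal list length and 3.05 thinned (chosen after seeing the data).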
